A study of Mus musculus with 4 samples.

Results

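Parvalbumin (Pvalb) interneurons were selected from the cortex-labelled libraries of a single-nucleus RNA-seq experiment on mouse brain by a rule on unique molecular identifiers (UMIs), each UMI standing for 1 captured RNA molecule. A nucleus was taken when it held at least 2 UMIs of Pvalb and at least 1 of Gad1 and Gad2 together, with at most 3 of Sst, 0 of Vip, at most 1 of Slc17a7, 0 of Slc17a6, at most 1 of Rgs9, and at most 1 of Mog, Aqp4, Csf1r and Cldn5 together. The rule kept 184 of 37538 nuclei of the 2 cortex-labelled libraries, out of 78728 nuclei in the 4 libraries of the series. Of these, 62 of 17168 came from the AAV-CTRL library and 122 of 20370 from the AAV-VEGF-C library.

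Male C57BL/6J mice received an adeno-associated virus (AAV) through the cisterna magna, and their brains were collected 4 weeks later, at an age of 8 weeks. AAV-VEGF-C encoded full-length mouse VEGF-C, the lymphangiogenic growth factor, whereas AAV-CTRL encoded immunoglobulin-like domains 4–7 of soluble VEGFR-3, which do not bind VEGF-C. Tissue of 5 mice was pooled in each AAV group, and the cortex- and striatum-labelled libraries of a group came from the same mice. Each group and region label therefore had 1 library, so no spread between mice could be measured, no p-value was computed, and all intervals below are exact 95% intervals that cover counting error only.

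Parvalbumin interneurons are inhibitory neurons that fire fast, brief action potentials and inhibit the somata and axon initial segments of excitatory neurons. Their firing rests on Kv3 potassium channels, which repolarize the membrane quickly, and their terminals release GABA with synaptotagmin 2 as a calcium sensor. They are known in cortex for perineuronal nets, for high energy demand and for the receptor ErbB4, through which neuregulins act.

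The 4 libraries held between 63165470 and 78332657 UMIs over 31053 genes. The median nucleus held 2622.5 UMIs in the cortex-labelled AAV-CTRL library and 2873 in the AAV-VEGF-C library, and called doublets made up 4.44% and 5.99% of nuclei. The region labels do not assure that a nucleus was cortical, because nuclei with the UMI profile of striatal spiny projection neurons (SPNs) made up 3.20% and 4.16% of the cortex-labelled libraries against 1.16% and 1.21% of the striatum-labelled ones. Nuclei with the UMI profile of Slc17a7 excitatory neurons went the other way. They made up 19.6% and 20.4% of the cortex-labelled libraries against 1.34% and 1.06% of the striatum-labelled ones. "Cortex-labelled" below states the label alone. A total of 94 barcodes occurred in both cortex-labelled libraries, and 1 selected nucleus of each library carried a barcode present in another library.

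Selected nuclei were deeper than the median nucleus of their libraries. They held 304813 UMIs in the AAV-CTRL library and 640788 in the AAV-VEGF-C library, with a median of 4758.5 UMIs per nucleus (range 804 to 14984) and 5331 (range 820 to 12292). The median number of genes per nucleus was 2521.5 and 2660. Doublet calls touched 1 of the 62 and 2 of the 122 nuclei.

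Pvalb itself, on mm10 chromosome 15 from 78191114 to 78206400 on the minus strand, lay close to the threshold in most members. It was counted at exactly 2 UMIs in 50 of 62 nuclei with AAV-CTRL and in 71 of 122 with AAV-VEGF-C. Summed over nuclei, Pvalb reached 139 and 324 UMIs, equal to 456 and 506 CPM (the UMIs of a class scaled to a sum of 1000000). Gad1, which makes most of the GABA in cell bodies and lies on chromosome 2 from 70553072 to 70602014 on the plus strand, had 106 and 261 UMIs. Gad2, the synaptic form of the enzyme, on chromosome 2 from 22622205 to 22693874 on the plus strand, had 69 and 157. These genes chose the nuclei, so their levels are a description of the selection. The genes that the rule bounded from above were sparse, with 16 and 30 UMIs of Sst, 23 and 61 of Slc17a7, 9 and 16 of Rgs9, and 2 to 6 of each of Mog, Aqp4, Csf1r and Cldn5.

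The label was checked on 12 markers of Pvalb or related interneurons that the rule did not use, among them Lhx6, Sox6, Satb1, Erbb4, Nxph1, Btbd11, Ank1, Kcnc1, Kcnc2, Slc32a1 and Tac1. The median selected nucleus held UMIs of 8 of them in either library. At least 6 were present in 42 of 62 nuclei (67.7%) and in 83 of 122 (68.0%), against 2.14% and 1.78% of excitatory nuclei (Slc17a7 at least 2 UMIs, Gad1 and Gad2 0, Pvalb at most 1). Vip nuclei (Vip at least 2, Pvalb at most 1, Sst at most 3) reached 34.9% and 26.1%, and Sst nuclei (Sst at least 4, Pvalb at most 1) reached 77.0% and 74.6%. With 1000 UMIs drawn from each nucleus, leaving out 2 and 1 shallower Pvalb, 2 and 1 Sst, 1 and 1 Vip and 50 and 59 excitatory nuclei, the median was 4 markers for Pvalb nuclei in both libraries, 4 and 3 for Sst nuclei, 2 for Vip nuclei and 1 for excitatory nuclei. The markers thus separated Pvalb nuclei from excitatory nuclei, and largely from Vip nuclei, but not from Sst nuclei, with which they share an origin in the medial ganglionic eminence.

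**Figure D1:**
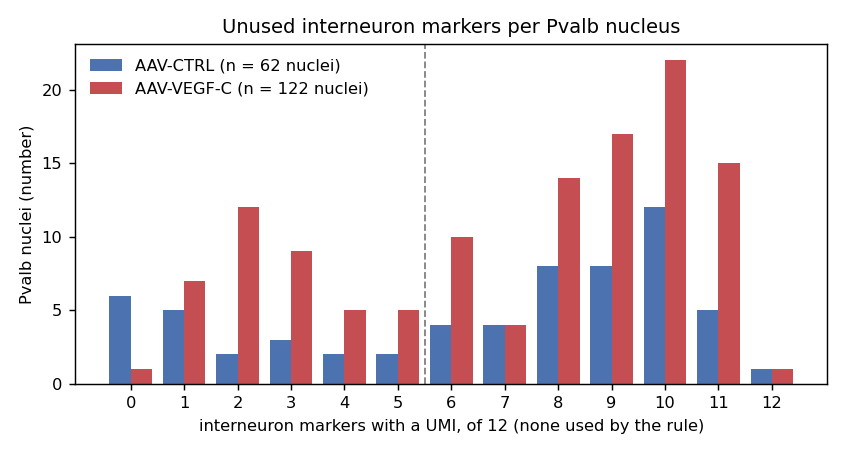
Number of the 12 markers outside the selection rule that were detected per nucleus (x axis, 0 to 12) against the number of Pvalb nuclei (y axis) in the AAV-CTRL and AAV-VEGF-C cortex-labelled libraries. Pvalb nuclei peak at high marker numbers, with a median of 8 in both libraries, and a smaller group of 16 and 29 nuclei sits at 0 to 3 markers.

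A minority of the selected nuclei did not carry the interneuron profile. With AAV-CTRL 16 of 62 nuclei, and with AAV-VEGF-C 29 of 122, held 0 to 3 of the 12 markers, and 6 and 1 held none. These nuclei were shallow, with a median of 1688 and 2614 UMIs, against 5445.5 and 5819 in nuclei with at least 6 markers. The mean count of Kcnc2, a Kv3 channel subunit, was 0.0625 and 0.552 UMIs per nucleus in the group of 0 to 3 markers against 13.9 and 11.9 in the group of at least 6. Nxph1, an α-neurexin ligand, was at 0.438 and 0.138 against 8.29 and 10.1 UMIs per nucleus. Summed excitatory neuron markers stood at 2328 and 2318 CPM in the low group against 1209 and 1234 CPM in the high group, and summed astrocyte markers at 2032 and 1632 CPM against 674 and 700.1. The part of free RNA, or of nuclei of other types, in the low group was not tested. Pvalb UMIs were found in 10.3% and 12% of excitatory nuclei and in 12.8% and 14.1% of oligodendrocyte nuclei, types that should lack the gene, with medians of 4605.5 and 4692 and of 1732.5 and 1788 UMIs per nucleus. The excitatory class was capped at 1 Pvalb UMI by its rule, so its share leaves out excitatory nuclei with more. Of all 201 and 368 nuclei with at least 2 Pvalb UMIs, 122 and 250 held a UMI of Gad1 or Gad2.

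Nuclei on either side of the threshold differed in the same markers. With 1 Pvalb UMI and the other clauses met there were 313 and 382 nuclei, of which 27.5% and 27.2% held at least 6 markers at a median depth of 2628 and 2609 UMIs. With 2 Pvalb UMIs the share was 62.0% and 54.9% at a depth of 4376.5 and 4278, and with 3 or more it was 91.7% and 86.3% at 6506 and 6479. Kcnc1, the Kv3.1 channel, stood at 364 and 376 CPM below the threshold, at 622 and 606 CPM at 2 UMIs and at 600.1 and 793 CPM above it. Depth and marker content went up together, and their parts cannot be told apart here.

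The share of selected nuclei was higher in the AAV-VEGF-C library. It was 0.361% (0.277 to 0.463; Clopper-Pearson interval) with AAV-CTRL and 0.599% (0.498 to 0.715) with AAV-VEGF-C, a log2 ratio of 0.73 (0.28 to 1.19). Over the same libraries the log2 ratio of the share was −0.07 (−0.37 to 0.23) for Sst nuclei, −0.15 (−0.59 to 0.29) for Vip nuclei and 0.06 (−0.00 to 0.13) for excitatory nuclei, whereas it was 0.38 (0.22 to 0.54) for SPN nuclei. Among Pvalb and Sst nuclei together, Pvalb nuclei made up 26.3% (20.8 to 32.4) of 236 with AAV-CTRL and 38.2% (32.9 to 43.8) of 319 with AAV-VEGF-C. Under the striatum label the same rule took 137 of 23724 and 136 of 17466 nuclei, 0.577% and 0.779%, a log2 ratio of 0.43 (0.08 to 0.78). The AAV-VEGF-C library had more UMIs per nucleus under both region labels (median 2272 and 2647 under the striatum label), and the part of depth in the share was not tested beyond the thinning given next.

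That difference in share depended on where the Pvalb threshold lay. With at least 3 Pvalb UMIs there were 12 and 51 nuclei, 0.0699% and 0.250%, a log2 ratio of 1.84 (0.91 to 2.88). With at least 1 there were 375 and 504, 2.18% and 2.47%, a log2 ratio of 0.18 (−0.02 to 0.38). After thinning each nucleus to 1000 UMIs the rule took 8 of 16526 and 10 of 19661 nuclei, 0.0484% and 0.0509%, a log2 ratio of 0.07 (−1.42 to 1.62), so no difference was detectable at equal depth with so few nuclei. Leaving out called doublets kept 0.372% and 0.627%. The nuclei with at least 6 of the 12 markers made up 0.245% and 0.407% of their libraries. Fewer cells of a type and less Pvalb RNA per cell cannot be told apart from such a share.

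Channels and synaptic proteins of fast spiking set Pvalb nuclei apart from the other interneurons in both libraries. Levels are given as CPM of the summed UMIs of each class, with AAV-CTRL first and AAV-VEGF-C second, and are compared between classes only within a gene. Kcnc1 stood at 617 and 701 CPM in Pvalb nuclei, against 236 and 297 in Sst, 331 and 235 in Vip and 93.8 and 97.4 in excitatory nuclei. The lower of its values in Pvalb nuclei lay above the highest value of the other 2 interneuron classes. Kcnc2 was less selective, at 1929 and 1568 CPM against 1442 and 1361 in Sst and 491 and 533 in Vip nuclei. Kcna1, the Kv1.1 channel of axons, stood at 207 and 289 CPM against 81.7 and 79.6 in Sst and 71.9 and 60.8 in Vip nuclei.

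**Figure D2:**
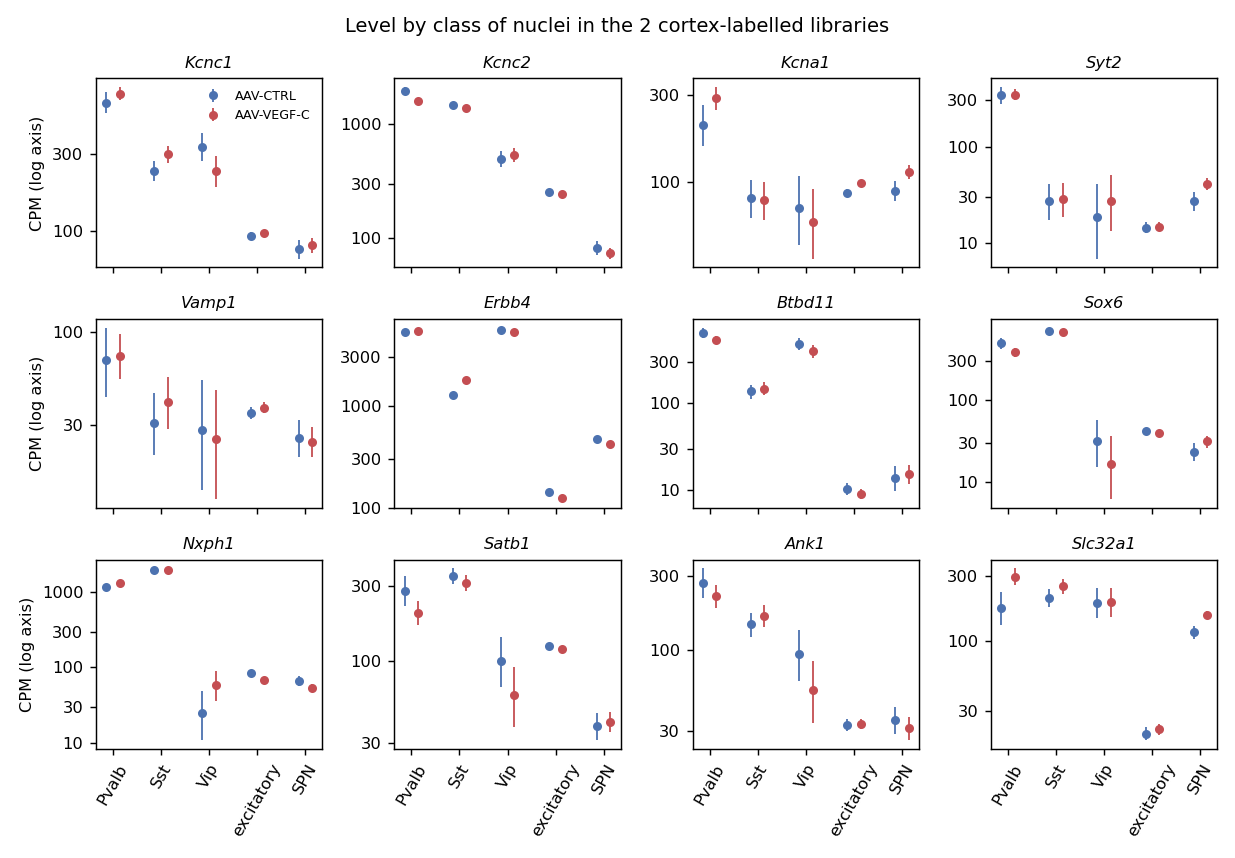
Summed level of 12 genes (CPM, logarithmic axis) in Pvalb, Sst, Vip, excitatory and SPN nuclei of the AAV-CTRL and AAV-VEGF-C cortex-labelled libraries, with exact 95% Poisson intervals as bars. Kcnc1, Kcna1 and Syt2 are highest in Pvalb nuclei, Sox6 and Nxph1 are higher in Sst than in Pvalb nuclei, and Erbb4 is at a like level in Pvalb and Vip nuclei.

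Among release genes, Syt2, the calcium sensor of fast synapses, showed the widest gap. It held 104 and 221 UMIs in Pvalb nuclei (341 and 345 CPM) against 23 and 26 in Sst nuclei (27.2 and 28.4 CPM), and stood at 18.8 and 27.6 CPM in Vip and 14.5 and 14.8 CPM in excitatory nuclei. Vamp1, a vesicle SNARE of fast terminals, stood at 68.9 and 73.3 CPM against 30.8 and 40.4 CPM in Sst nuclei. Both genes were higher in each library, and the ratio of Syt2 to Sst nuclei differed little between the libraries, with log2 values of 3.65 (2.98 to 4.37) and 3.60 (3.01 to 4.25).

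Lineage genes divided the interneurons in another way. Erbb4 was at 5331 and 5473 CPM in Pvalb nuclei, against 1268 and 1782 in Sst nuclei, 5594 and 5316 in Vip nuclei and 142 and 126 in excitatory nuclei. Btbd11, a postsynaptic scaffold protein of interneurons, was at 640 and 532 CPM against 136 and 147 in Sst and 482 and 395 in Vip nuclei. Sox6 and Nxph1 marked the shared lineage with Sst nuclei. Sox6, a transcription factor of medial ganglionic eminence interneurons, stood at 499 and 389 CPM against 713 and 675 in Sst and 31.3 and 16.6 in Vip nuclei, and Nxph1 at 1168 and 1341 CPM against 1977 and 1944 in Sst and 25 and 58.0 in Vip nuclei. Lhx6, the homeobox factor of the same lineage, was sparse in nuclei, with 36.1 and 40.6 CPM and a UMI in 16.1% and 16.4% of Pvalb nuclei. Slc32a1, the vesicular GABA transporter, stood at 174 and 298 CPM against 208 and 253 in Sst nuclei, so that the classes overlapped.

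Over all genes with at least 100 UMIs in Pvalb and Sst nuclei of both libraries together (5181 genes), 261 (5.04%) were at least 1.5-fold higher in Pvalb than in Sst nuclei in both libraries and 290 (5.6%) were at least 1.5-fold lower. The classes were cut by UMIs of Pvalb and Sst in the same nuclei, so these ratios describe the classes and are no test. After Syt2, the genes with the largest ratios were Cemip, with 120 against 29 UMIs and 242 against 24 (log2 3.52 and 3.85), and Tmem108, with 226 against 86 and 563 against 125 (log2 2.86 and 2.69). Cemip encodes a hyaluronan-binding protein involved in hyaluronan breakdown. Myo1e, an unconventional myosin, had log2 ratios of 2.47 and 3.05, Pde5a, a cGMP phosphodiesterase, 2.40 and 3.03, and Pla2g3, a secreted phospholipase, 2.98 and 2.23. Gabrd, the δ subunit of extrasynaptic GABA-A receptors, had 2.33 and 2.45, and Slit2, an axon guidance ligand, 2.06 and 2.13. The noncoding genes Sox5os4 (2.33 and 2.26) and Gm26673 (2.18 and 2.46) completed the set of 10.

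The genes with the lowest ratios to Sst nuclei included known Sst interneuron genes. Grin3a, an NMDA receptor subunit, had 13 UMIs in Pvalb against 675 in Sst nuclei with AAV-CTRL and 24 against 632 with AAV-VEGF-C (log2 −4.23 and −4.20). Elfn1, a postsynaptic adhesion protein that Sst neurons use to shape their excitatory input, had 7 against 273 and 10 against 234 (−3.82 and −4.03). Reln, the secreted glycoprotein reelin, had log2 ratios of −4.03 and −3.25, the vesicle protein Synpr −3.63 and −3.14, the CRH-binding protein gene Crhbp −3.0 and −3.49, and Gm28175 −2.94 and −4.01. The other 4 rested on 1 or 2 UMIs in Pvalb nuclei with AAV-CTRL. They were L3mbtl4 (log2 −3.44, interval −6.52 to −1.52, and −3.65, −6.75 to −1.70), the laminin gene Lama4 (−3.39, −6.47 to −1.47, and −4.53, −7.60 to −2.62), the opioid precursor gene Pdyn (−4.82, −7.88 to −2.95, and −3.26, −4.51 to −2.24) and 4930473D10Rik (−4.28, −9.61 to −1.75, and −3.10, −5.03 to −1.65).

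**Figure D3:**
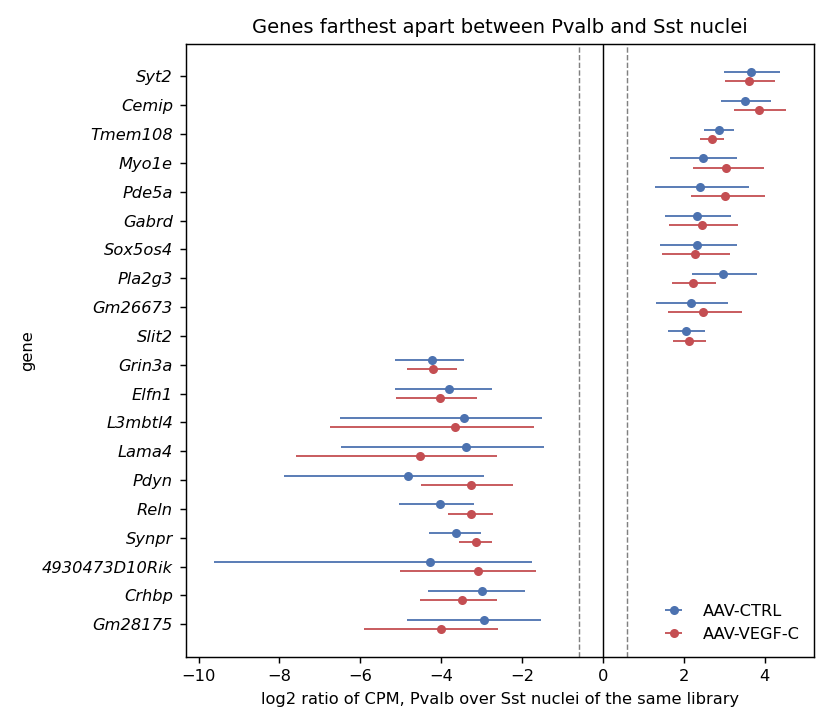
Log2 ratio of summed CPM in Pvalb over Sst nuclei (x axis) for the 10 highest and 10 lowest genes (y axis), with the AAV-CTRL and AAV-VEGF-C libraries as separate points, exact 95% intervals as bars and dashed lines at 1.5-fold. Each gene lies on the same side of the lines in both libraries, from Syt2 at 3.65 and 3.60 to Grin3a at −4.23 and −4.20.

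Gene lists gave the functional content of that difference, each list read beside 5.04% of genes higher and 5.6% lower over all genes tested. Of 28 genes of fast-spiking channels tested, 9 were at least 1.5-fold higher in Pvalb than in Sst nuclei in both libraries and 4 were lower, with median log2 ratios of 0.40 and 0.48. Beside Kcnc1 (1.39 and 1.24) and Kcna1 (1.34 and 1.86), the higher set included the Kvβ subunit genes Kcnab1 (0.84 and 0.60) and Kcnab2 (0.93 and 0.64), the sodium channel gene Scn8a (0.86 and 0.76), and the calcium channel subunit genes Cacna2d1 (0.83 and 0.93) and Cacna2d2 (0.74 and 0.78). The lower set was Kcnd3 (−1.20 and −1.72), Scn2a (−0.75 and −0.71), Cacna1e (−1.07 and −1.12) and Cacna2d3 (−2.0 and −1.86). Scn1a, the sodium channel of fast-spiking axons, fell short of the fold in the AAV-VEGF-C library (0.79 and 0.58), as did Kcnc2 in both (0.42 and 0.20).

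Receptor genes past the fold were mostly higher for GABA and all lower for glutamate. Of 13 genes of GABA receptors tested against Sst nuclei, 4 were higher, among them Gabrb2 (1.48 and 1.15), Gabrg3 (1.38 and 1.30) and Gabrd, and Gabra2 (−1.56 and −0.82) and Gabbr1 (−0.59 and −0.64) were lower. Of 22 glutamate receptor genes, 0 were higher and 7 lower, with medians of −0.29 and −0.22. These included the AMPA subunit Gria1 (−1.09 and −0.85), Grin3a, the kainate subunits Grik1 (−1.35 and −1.68) and Grik3 (−1.95 and −1.74), and the metabotropic receptor Grm7 (−0.85 and −1.29). Of 22 release genes, Syt2 and Vamp1 (1.16 and 0.86) were higher and Unc13c (−2.25 and −2.23) lower.

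Among genes of energy metabolism, 2 transcriptional regulators were past the fold. Of 16 genes tested, with medians of −0.0017 and 0.19, Esrrg, an orphan nuclear receptor of oxidative metabolism (2.28 and 1.77), and the coactivator gene Ppargc1b (0.83 and 0.62) were higher and 0 lower. Ppargc1a, the coactivator PGC-1α known for its role in Pvalb neurons, was at 0.93 and 0.57 and so just missed the fold in the AAV-VEGF-C library. Of 5 genes of VEGF receptors and their semaphorin and plexin partners, the plexin gene Plxna4 was higher (1.39 and 1.10) and the semaphorin gene Sema3a lower (−1.01 and −0.98). Of 20 genes of neurotrophin signalling, Ntrk3, the receptor of neurotrophin-3, was higher (1.53 and 1.39), and Ntrk2, the receptor of BDNF, stood at 938 and 872 CPM against 904 and 826 CPM in Sst nuclei.

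Among the other lists, lineage, subtype and adhesion genes were past the fold in both directions. Of 18 lineage genes, Erbb4, Btbd11, Cntnap4, Slit2 and Kcnip2 were higher than in Sst nuclei and Lhx6 (−0.95 and −0.78) and Tox (−2.47 and −3.68) lower. Of 20 genes of neuregulin signalling and adhesion, 4 were higher, namely Erbb4 (2.07 and 1.62), Nrg1 (1.00 and 0.78), Cntnap4 and Lgi2 (1.21 and 0.88), and 7 lower. Of 11 subtype genes, Il1rapl2 was higher (0.70 and 1.82) and 7 lower, among them Calb1 (−1.31 and −1.91) and Npy (−3.51 and −2.40). Of 15 calcium-handling genes, Itpr1, an intracellular calcium channel, was higher (1.07 and 1.29) and Calb1 lower. Of 4 tested genes of perineuronal nets, Bcan was higher (2.14 and 1.09), while Acan, the aggrecan core protein gene of these nets, had 8 and 14 UMIs in Pvalb nuclei and 0 and 2 in Sst nuclei. Of 5 immediate early genes, Nr4a1 was lower (−0.70 and −0.60). None of the tested markers of excitatory neurons (6), SPNs (8) or oligodendrocytes (3) was past the fold in both libraries, and of 5 astrocyte markers Slc4a4 was higher and Atp1b2 lower.

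Against Vip nuclei more lineage and fast-spiking genes were at least 1.5-fold higher than against Sst nuclei. Of 3389 genes tested, 322 (9.5%) were at least 1.5-fold higher in Pvalb nuclei in both libraries and 239 (7.05%) lower. Of 13 lineage genes, 7 were higher and 0 lower, among them Sox6 (4.0 and 4.55) and Satb1 (1.48 and 1.74), which act in the maturation of these interneurons. Of 27 fast-spiking genes, 16 were higher and 5 lower, with medians of 0.87 and 0.78, led by the calcium channel subunit gene Cacna2d2 (4.0 and 3.95). The highest single ratios were those of the kinase gene Nek7 (58 against 1 and 99 against 1 UMIs, log2 5.93, 3.39 to 11.26, and 5.81, 3.29 to 11.12), Nxph1 (5.54 and 4.53), Cemip (4.65 and 4.51), the coronin gene Coro6 (37 against 2 and 78 against 1 UMIs) and Tmem132c (53 against 2 and 130 against 0 UMIs). The lowest were Tac2, encoding neurokinin B (1 against 92 and 1 against 83 UMIs), Adarb2 (−4.64 and −5.05), Cxcl14 (3 against 91 and 10 against 136 UMIs), Igf1 (−4.31 and −5.71) and Synpr (−4.41 and −3.95). All but Synpr are known genes of interneurons from the caudal ganglionic eminence. Synpr was also high in Sst nuclei, at 894 and 758 CPM. Ppargc1a was higher than in Vip nuclei in both libraries (1.16 and 1.34).

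Against excitatory nuclei, 1226 of 13532 genes (9.06%) were higher and 1628 (12%) lower in both libraries. Of 20 lineage genes, 16 were higher and 1, Tox, was lower, with medians of 2.63 and 2.76. Of 7 genes of GABA synthesis and transport, 5 were higher. Immediate early genes were on the low side, with 0 of 19 higher and 7 lower and medians of −0.57 and −1.03. Of 11 excitatory markers, 8 were lower and 0 higher.

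The comparison the design implies is AAV-VEGF-C against AAV-CTRL within Pvalb nuclei. Of 1833 genes with at least 100 UMIs in the 184 nuclei together, 95 (5.18%) were at least 1.5-fold higher with AAV-VEGF-C and 42 (2.29%) at least 1.5-fold lower, 7.47% in either direction. The median log2 ratio over all of them was 0.00, with quartiles of −0.19 and 0.20. The counting interval lay above 0 for 90 of the 95 and below 0 for 42 of the 42, but it holds no spread between mice. Removing the nucleus with the most UMIs of each gene left 94 of the 95 and 26 of the 42 past the fold. With that removal 120 of the 1833 genes (6.55%) were higher and 26 (1.42%) lower. It takes 1 of 62 nuclei with AAV-CTRL but 1 of 122 with AAV-VEGF-C, which tends to raise ratios. The kept counts of the 2 directions therefore cannot be compared. In 7 of the 42 a single nucleus held at least 50% of the AAV-CTRL UMIs.

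Mitochondrially encoded transcripts made up the clearest group among the higher genes. They were grouped after their values were seen. All 11 of the 13 such genes in the files that reached 100 UMIs were past the fold, with log2 ratios from 0.69 to 1.46 and a median of 1.21. For mt-Co3, a cytochrome c oxidase subunit gene, 291 UMIs were counted with AAV-CTRL and 1570 with AAV-VEGF-C (955 and 2450.1 CPM), a log2 ratio of 1.36 (1.18 to 1.55). The counts were 234 and 1150 UMIs (1.23) for mt-Co1, the catalytic subunit gene of the same complex, for mt-Cytb of complex III 68 and 340 (1.25), and mt-Atp6 of ATP synthase 288 and 1181 (0.96). The smallest ratio was that of mt-Nd3, a complex I subunit gene, with 67 and 228 UMIs (0.69), and the largest that of mt-Nd4l with 15 and 87 (1.46).

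The mitochondrial difference was wider in Pvalb nuclei than in the other classes of the same libraries, which share its direction. Mitochondrial UMIs made up 0.484% of all UMIs of Pvalb nuclei with AAV-CTRL and 1.04% with AAV-VEGF-C, a log2 ratio of 1.11 (1.03 to 1.19). The ratio was 0.39 (0.34 to 0.43) in Sst, 0.54 (0.45 to 0.62) in Vip, 0.54 (0.52 to 0.55) in excitatory, 0.67 (0.64 to 0.70) in SPN and 0.51 (0.45 to 0.57) in oligodendrocyte nuclei, and 0.70 (0.65 to 0.75) in nuclei taken by the Pvalb rule under the striatum label. The interval of Pvalb nuclei overlapped none of these, but the intervals treat UMIs of 1 nucleus as separate draws and hold no spread between nuclei or mice. Per nucleus, the median share was 0.422% (quartiles 0.291 and 0.760) with AAV-CTRL and 0.837% (0.479 and 1.47) with AAV-VEGF-C, so that the quartile ranges overlapped. In the same order the medians were 0.579% and 0.862% in Sst, 0.490% and 0.731% in Vip and 0.504% and 0.764% in excitatory nuclei. They were 0.390% and 0.661% in SPN nuclei and 0.765% and 1.10% in oligodendrocyte nuclei. The level with AAV-CTRL was 0.484% in Pvalb nuclei and 0.487% in SPN nuclei. It was 0.720% in Sst, 0.576% in Vip, 0.564% in excitatory and 0.837% in oligodendrocyte nuclei. With AAV-VEGF-C it was 1.04% in Pvalb nuclei and 0.776% in SPN nuclei. There it was 0.942% in Sst, 0.837% in Vip, 0.817% in excitatory and 1.19% in oligodendrocyte nuclei. The summed ratio was 1.28 in nuclei with at least 6 markers, 1.33 with at least 3 Pvalb UMIs, 0.89 with 0 Sst UMIs and 0.82 after thinning to 1000 UMIs. In nuclei such transcripts come from outside the nucleus, and the part of nuclear preparation in the difference was not tested.

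**Figure D4:**
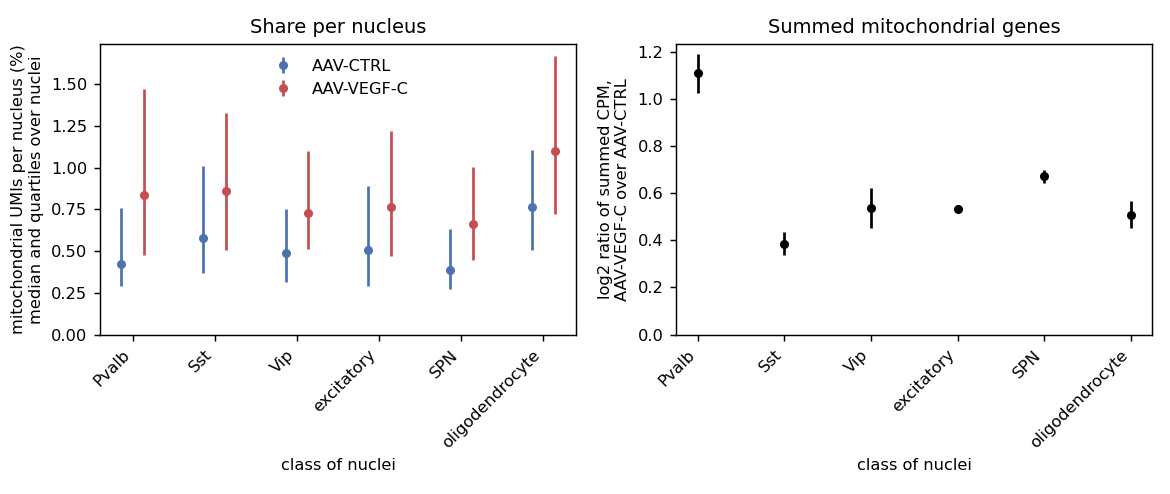
Left, mitochondrial share of UMIs per nucleus (percent, median and quartiles) by class and library of the cortex label. Right, log2 ratio of the summed mitochondrial share, AAV-VEGF-C over AAV-CTRL, by class of the cortex label with exact 95% intervals. Pvalb nuclei are at 1.11 and the other classes between 0.39 and 0.67.

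The list of nuclear energy metabolism genes held no gene past the fold, beside 7.47% of all genes. Of its 19 genes, 11 reached 100 UMIs, and 0 of them were past the fold in either direction, with log2 ratios from −0.22 to 0.46, a median of 0.36 and a summed ratio of 0.19 (0.07 to 0.31). Ppargc1a had 49 and 121 UMIs (0.23, −0.26 to 0.74), Esrrg 267 and 482 (−0.22, −0.44 to 0.00), and Cox4i1, a nuclear subunit gene of cytochrome c oxidase, 51 and 147 (0.46, −0.01 to 0.94). Cox6a2, an isoform of that complex found in Pvalb neurons, had 8 and 39 UMIs, and Cox5a, another subunit gene, 18 and 72 (0.93, 0.17 to 1.76), both too few for the fold rule. Genes of cytosolic ribosomal proteins were higher in part, with 13 of 36 past the fold, 0 lower and a median of 0.45. Their summed log2 ratio of 0.43 (0.36 to 0.50) lay near those of Sst (0.39), Vip (0.33), excitatory (0.35), SPN (0.38) and oligodendrocyte (0.42) nuclei.

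**Figure D5:**
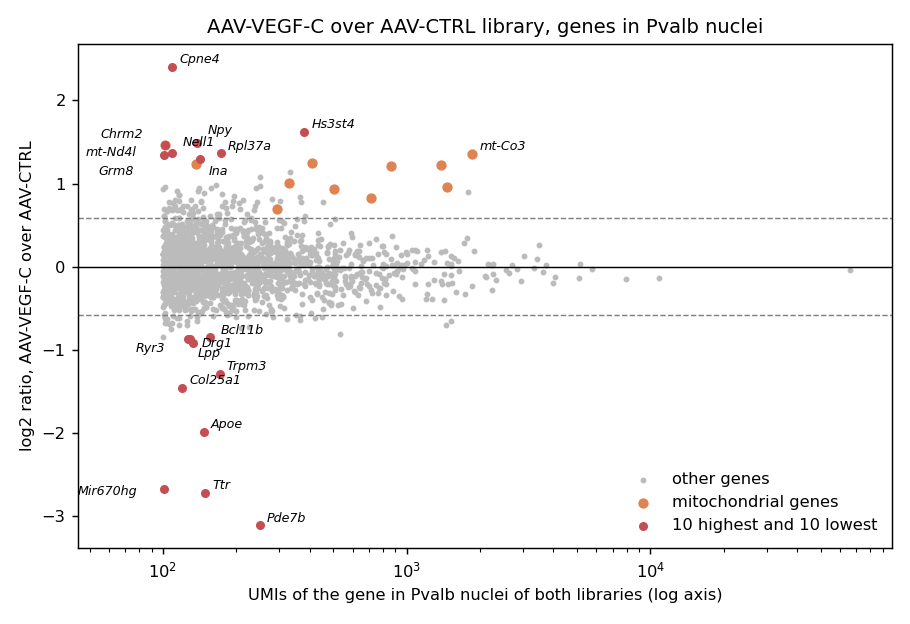
Log2 ratio of AAV-VEGF-C over AAV-CTRL in Pvalb nuclei of the cortex label (y axis) against the UMIs of each gene in both libraries together (x axis, logarithmic) for 1833 genes. Mitochondrially encoded genes (orange) all lie above the 1.5-fold line, and the 20 named genes (red) spread at the edges, from Cpne4 at 2.40 to Pde7b at −3.11.

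The 10 highest ratios included 2 mitochondrial genes, and 9 of the 10 genes had at most 51 UMIs in the AAV-CTRL library. Cpne4, a calcium-dependent membrane-binding protein gene on chromosome 9 from 104547286 to 105034544, had 9 and 100 UMIs (log2 2.40, 1.42 to 3.57), but 1 nucleus held 55.0% of the AAV-VEGF-C UMIs, and the ratio without the top nucleus was 1.60. Hs3st4, a heparan sulfate sulfotransferase gene on chromosome 7 from 123982869 to 124398989, had 51 and 330 UMIs (1.62, 1.19 to 2.08), and 344 and 839 UMIs (1.02) under the striatum label. Npy, the neuropeptide Y gene on chromosome 6 from 49822710 to 49829507, had 20 and 118 UMIs (1.49, 0.80 to 2.25), against a log2 ratio of 0.39 in Sst and 1.24 in Vip nuclei. The UMIs of the AAV-VEGF-C library came from 20, 44 and 32 nuclei, and these genes were picked for their ratios, so the intervals only show the counting error.

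Chrm2, the muscarinic M2 receptor gene, had 15 and 87 UMIs (1.46, 0.66 to 2.36) under the cortex label and a log2 ratio of −0.47 under the striatum label. Grm8, a presynaptic metabotropic glutamate receptor gene, had 16 and 85 UMIs (1.34, 0.56 to 2.21), Nell1, a secreted glycoprotein gene, 17 and 92 (1.36, 0.61 to 2.20), Ina, the α-internexin filament gene, 23 and 119 (1.30) and the ribosomal protein gene Rpl37a 27 and 146 (1.36). With mt-Nd4l and mt-Co3 they made up the 10 highest.

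In 6 of the 10 genes with the lowest ratios, 1 nucleus held at least 50% of the UMIs of the AAV-CTRL library. Pde7b, a cAMP phosphodiesterase gene that is high in striatum, had 201 and 49 UMIs (−3.11, −3.59 to −2.65), of which 1 nucleus held 76.1% with AAV-CTRL, and the ratio without the top nucleus was −1.28. Ttr, the transthyretin gene of choroid plexus, had 113 and 36 UMIs (−2.72) with 88.5% in 1 nucleus, and the ratio turned to 0.25 without it. Ryr3, an intracellular calcium release channel gene, had 60 and 69 UMIs (−0.87) with 78.3% in 1 nucleus and turned to 0.91. Mir670hg (−2.68, with 56.6% in 1 nucleus), Apoe (−1.98, 58.3%) and Col25a1 (−1.46, 52.9%) kept the sign without it, at −1.70, −1.11 and −0.56. Without the top nucleus Pde7b, Mir670hg and Apoe were still past the fold, and Ttr, Ryr3 and Col25a1 were not.

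Another 4 genes of the lowest 10 were less dependent on 1 nucleus. Trpm3, a cation channel gene, had 92 and 79 UMIs (−1.29; −1.18 without the top nucleus), Drg1, a GTP-binding protein gene, 63 and 70 (−0.92; −0.80), Lpp, a focal adhesion gene, 59 and 68 (−0.87; −0.86) and Bcl11b, a transcription factor gene of SPNs, 72 and 84 (−0.85; −0.81).

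Fast-spiking and lineage genes were past the fold at about the share of all genes (7.47%). Of 25 fast-spiking genes with 100 UMIs, out of 31, 1 was higher, 1 lower and the median was 0.02. The lower gene was Kcnq5, a subunit of the M-type potassium channel, with 242 and 290 (−0.81, −1.06 to −0.56). Kcnc1 had 188 and 449 UMIs (0.18, −0.06 to 0.44) and Kcnc2 588 and 1005 (−0.30, −0.45 to −0.15), and Kcnma1, the BK channel gene, 409 and 975 (0.18, 0.01 to 0.35). Of 13 lineage genes with 100 UMIs, out of 21, 0 were higher and 1, the Kv4-interacting gene Kcnip2, was lower with 48 and 66 UMIs (−0.61, −1.17 to −0.04), and the median was −0.11. Kcnip2 was at −0.58 without its top nucleus, just under the fold, and at 0.035 with at least 3 Pvalb UMIs. Erbb4 had 1625 and 3507 UMIs (0.04, −0.05 to 0.12) and Nxph1 356 and 859 (0.20, 0.02 to 0.38).

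Genes of GABA handling and release gave single members past the fold. Slc32a1, which fills vesicles with GABA and lies on chromosome 2 from 158610767 to 158615748, had 53 and 191 UMIs (0.78, 0.33 to 1.25), the only one of 4 GABA synthesis and transport genes with 100 UMIs to pass it. Slc38a1, a glutamine transporter gene, had 80 and 164 UMIs (−0.04). Of 18 release genes, the vesicle GTPase gene Rab3a was higher with 36 and 139 UMIs (0.88, 0.34 to 1.45) and Sv2b lower with 54 and 72 (−0.66, −1.19 to −0.12), around a median of 0.02. Sv2b was no longer past the fold without its top nucleus (−0.35), and was at 0.24 after thinning to 1000 UMIs. Syt1 had 714 and 1539 UMIs (0.04) and Syt2 104 and 221 (0.02), close to equal after scaling.

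Receptor and adhesion lists each held 1 gene past the fold, near the share of 7.47% over all genes. Of 11 genes of GABA receptors and their scaffold, 0 were higher and Gphn, encoding gephyrin, was lower with 189 and 261 UMIs (−0.61, −0.88 to −0.33), and at −0.41 without its top nucleus it was no longer past the fold. Of 18 glutamate receptor genes, Grm8 was higher, 0 were lower and the median was −0.09, with Grin2a at 485 and 782 UMIs (−0.38, −0.55 to −0.22), Grm5 at 462 and 744 (−0.38, −0.55 to −0.21) and Gria1 at 425 and 1016 (0.19, 0.02 to 0.35). Of 14 genes of neuregulin signalling and adhesion, 0 were higher and Nlgn1, the neuroligin of excitatory synapses, was lower with 634 and 823 UMIs (−0.70, −0.85 to −0.54), of which 1 nucleus held 20.8% with AAV-CTRL, and at −0.47 without it the fold was not reached. In the same list Nrxn3 had 1741 and 3339 UMIs (−0.13) and Nrg3 1087 and 2254 (−0.02), and the median was −0.05.

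No gene of the neurotrophin and VEGF lists was past the fold, beside 7.47% of all genes, and few of them had enough UMIs to be read. Of 9 neurotrophin genes with 100 UMIs, out of 30, 0 were past it and the median was 0.05. Ntrk2 had 286 and 559 UMIs (−0.11, −0.31 to 0.11), Ntrk3 285 and 480 (−0.32, −0.53 to −0.10), and Bdnf itself 4 and 13. The receptors of VEGF-C were at or near 0 in these nuclei, with 0 and 2 UMIs of Flt4, the gene of VEGFR-3, and 0 and 1 of Kdr, the gene of VEGFR-2. The floor for a count of 0 was set at 3 UMIs, equal to 9.84 CPM with AAV-CTRL, and is not an exact interval. The coreceptor gene Nrp2 had 21 and 21 UMIs (−1.07, −2.02 to −0.13, and −0.20 without the top nucleus), Nrp1 5 and 33, and Vegfc 8 and 6 UMIs. These fell short of 100 UMIs, and of them only Nrp1 was higher with AAV-VEGF-C after scaling. Of the 2 genes of this list with 100 UMIs, Plxna4 had 251 and 451 (−0.23) and Plxna2 70 and 146 (−0.01).

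The remaining lists were sparse. Of 16 genes of perineuronal nets only Tnr, tenascin-R, reached 100 UMIs, with 206 and 455 (0.07), and Hapln1, a link protein gene, had 6 and 37. Of 20 immediate early genes, 2 reached it, Homer1 with 57 and 100 (−0.26) and Egr1 with 36 and 77 (0.02). Of 13 calcium-handling genes, 0 were higher and Ryr3 was lower, around a median of −0.02, with the calcium pump gene Atp2b2 at 246 and 577 UMIs (0.16) and the calcineurin gene Ppp3ca at 315 and 651 (−0.02). Of 24 subtype genes, 3 reached 100 UMIs, among them Il1rapl2 with 265 and 596 (0.10), and Crh had 0 UMIs in both libraries.

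Of the summed markers of other cell types, those of SPNs and oligodendrocytes had counting intervals that excluded 0 between the libraries within the selected nuclei. SPN markers summed to 2054 CPM with AAV-CTRL and 1353 with AAV-VEGF-C, a log2 ratio of −0.60 (−0.75 to −0.45), against 8505 and 9055 CPM in SPN nuclei. Bcl11b was past the fold among the 3 of 12 that reached 100 UMIs. Penk, the enkephalin gene, had 53 and 20 UMIs (−2.48, and −1.50 without the top nucleus), with 58.5% of those with AAV-CTRL in 1 nucleus. Oligodendrocyte markers summed to 419.9 and 524 CPM (0.32, 0.02 to 0.63; −0.29 after thinning to 1000 UMIs), against 15639.7 and 19839 CPM in oligodendrocyte nuclei. The intervals of the next lists held 0. Excitatory markers summed to 1459.9 and 1476 CPM (0.02, −0.15 to 0.18) and astrocyte markers to 1010.5 and 877 (−0.20, −0.41 to 0.001). Microglial markers summed to 148 and 109 CPM (−0.43, −0.995 to 0.14) and endothelial to 62.3 and 39.0 CPM (−0.68, −1.6 to 0.27). Of the interneuron markers of other classes, Npy was higher and Adarb2 lower with 147 and 206 UMIs (−0.59), of which 1 nucleus held 73.5%, with a ratio of 0.93 without the top nucleus, and Vip was at 0 by rule. The part of these foreign markers in the AAV ratios was not tested.

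The same genes were followed in nuclei taken by the rule under the striatum label, which came from the same mice. There 35.8% and 50.7% of 137 and 136 nuclei held at least 6 of the 12 markers, fewer than under the cortex label. Of the 95 higher genes 92 had 100 UMIs under both labels, and 16 of them were at least 1.5-fold higher there, beside 3.84% of the 1746 genes tested under both. Of the 42 lower genes 38 had 100 UMIs, and 4 were past the fold, beside 3.38%. Since both region labels of an AAV group draw on the same pool of mice, these values are no independent replicate.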

How the data were processed

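Nuclei were sequenced on the 10x Genomics platform. The authors deposited UMI counts per gene and nucleus made with Cell Ranger (5.1.1 in the submitters' processing notes, 5.0.1 in the file headers) on mm10, and positions are from a GENCODE annotation of that build. Counts were used as deposited, with no further filter on nuclei. Doublets were called with Scrublet in scanpy 1.11.5 (expected rate 8%) and kept. UMIs were summed per library and class and scaled to CPM, and ratios carry exact conditional binomial 95% intervals (scipy 1.17.1, Python 3.11.15). These were tested on simulated independent counts, which leave out the uneven spread of UMIs over nuclei. With 1 library per group no replicate error exists. A gene counted as past the fold at 1.5-fold with at least 100 UMIs. Genes were named as the rule genes, the 10 highest and lowest in each direction (5 against Vip nuclei), and, from 21 lists of 349 genes, members with the most UMIs, past the fold or at 0. Members and lists were chosen with earlier results of these data known. Alternatives were another Pvalb threshold, 0 Sst UMIs, doublets left out, thinning to 1000 UMIs, median-of-ratios scaling and minima of 50 or 200 UMIs. Chosen after seeing the data were at least 6 markers, scaling without mitochondrial genes and leaving out the top nucleus of each gene. Some genes of these lists are not reported here by name.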

Additional observations from a re-analysis of the deposited data

Results flagged for a closer look

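Of 1746 genes with at least 100 UMIs under both region labels, 2 had AAV-VEGF-C over AAV-CTRL ratios past 1.5-fold in opposite directions in Pvalb-rule nuclei. Over the same genes, 3.84% were at least 1.5-fold higher with AAV-VEGF-C under the striatum label and 3.38% lower. The 2 genes were picked for these ratios, so the intervals only show the counting error. Genes with opposite signs short of the fold under 1 label, such as Chrm2 (1.46 and −0.47), were not counted. Nell1 had a log2 ratio of 1.36 (0.61 to 2.20) under the cortex label, from 17 and 92 UMIs, and −1.30 (−1.62 to −0.98) under the striatum label, from 254 and 124 UMIs. Ggact was at −0.67 (−1.26 to −0.07; 44 and 58 UMIs) under the cortex label and at 0.95 (0.36 to 1.58; 34 and 79 UMIs) under the striatum label. Each value rests on 1 library per group, and the difference between the labels was not tested.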

How the results depend on the processing

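No paired analysis was possible because each group had 1 library and the labels carry no shared replicate numbers, and no replicate could be left out. Median-of-ratios scaling, leaving out called doublets and scaling without mitochondrial genes reversed no ratio and moved no list median beyond its counting error. With at least 3 Pvalb UMIs the shares were 0.0699% and 0.250% (log2 1.84), the median depth 6506 and 6479 UMIs over 2977.5 and 2972 genes, and list medians −0.23 (lineage), −0.055 (GABA receptors), 0.014 (glutamate receptors) and −0.097 (neurotrophin), and Ryr3 (1.83), Kcnip2 (0.035) and Adarb2 (3.55) reversed. With at least 1 Pvalb UMI the shares were 2.18% and 2.47% (0.18). The rule applied after thinning gave 0.0484% and 0.0509% (0.071). Thinning selected nuclei left 11 genes higher and 2 lower with AAV-VEGF-C of 189 tested, 5.82% and 1.06%, beside 5.18% and 2.29% as reported. It left 4 and 3 under the striatum label, 55 and 103 against Sst and 59 and 80 against Vip nuclei, because fewer genes kept 100 UMIs. It put the medians of lineage, channel, glutamate receptor and neurotrophin genes at 0.049, 0.13, −0.16 and −0.42, and reversed summed oligodendrocyte markers (−0.29), Ryr3 (0.16), Sv2b (0.24) and Adarb2 (0.16). A minimum of 50 UMIs gave 319 higher and 197 lower of 3924 genes, 8.13% and 5.02% (203 and 143 genes under the striatum label). Its medians were −0.57 (subtype), 0.064 (calcium) and −0.81 (SPN). A minimum of 200 UMIs gave 30 and 15 of 754 genes, 3.98% and 1.99% (25 and 23 genes under the striatum label). Its medians were 0.038 (lineage), 0.15 (calcium) and 0.13 (mitochondrial). With 0 Sst UMIs medians were 0.060 (calcium), −0.11 (neurotrophin), 0.014 (neuregulin) and 0.18 (astrocyte). With at least 6 markers the shares were 0.245% and 0.407%, the AAV-VEGF-C nuclei held a median of 5819 UMIs over 2800.0 genes, medians were 0.018 (lineage), −0.15 (glutamate receptors) and 0.00046 (neuregulin), and Ryr3 was at 0.20. Without the top nucleus of each gene 120 of 1833 genes (6.55%) were higher and 26 (1.42%) lower. Medians were then 0.11 (calcium) and 0.93 (other interneurons), and Ttr (0.25), Ryr3 (0.91) and Adarb2 (0.93) reversed. The cause of these shifts was not tested. Depth limits the comparison, since 1833 of 31053 genes reached 100 UMIs in 184 nuclei and no value carries a spread between mice.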

Other observations

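Further genes past the fold with AAV-VEGF-C, named after their values were seen, included an ion channel gene and cytoskeletal and respiratory chain genes. Asic2, an acid-sensing ion channel gene, had 364 UMIs with AAV-CTRL and 1421 with AAV-VEGF-C (log2 0.89, 0.73 to 1.06), and its ratio was 0.01 in Sst nuclei, −0.04 in excitatory nuclei and 0.11 in nuclei taken by the Pvalb rule under the striatum label. Rgs6, a regulator of G protein signalling, had 49 and 202 UMIs (0.97, 0.52 to 1.45), with −0.48 in Sst nuclei. The difference between the classes was not tested, and the set was picked for its ratios. The neuronal tubulin genes Tubb3 and Tubb4a had 25 and 91 and 20 and 82 UMIs, with ratios of 0.79 and 0.96. Among nuclear genes of the respiratory chain outside the list of energy metabolism, Atp5g1 (0.94), Uqcr11 (0.89) and Atp5k (0.85) were past the fold, with ratios of 0.43, 0.42 and 0.86 in Sst nuclei of the same libraries.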
